A study of Mus musculus with 6 samples.

Results

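The genes that encode the proteins of the mitochondrial ribosome were compared between hair follicle bulge cells grown with and without EGF. Members were all genes whose symbol begins with Mrpl or Mrps followed by a digit and that have a probe set of their own, with no second gene symbol, on the Mouse Genome 430 2.0 array. The rule found 76 genes among the 18193 read from the array. Where a gene had several such probe sets (short sets of probes for one transcript), the one with the highest mean log2 signal over all arrays was read. Of the 76, 49 encode proteins of the large subunit and 26 encode proteins of the small subunit. The remaining one, Mrps36, is no longer counted as a ribosomal protein in current naming. Mrps18a and Mrps30 were placed with the large subunit, where their products sit despite their names.

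Mouse vibrissa bulge cells were embedded as single epithelial cells in 1% atelocollagen, a collagen gel without telopeptides, and cultured for 6 days. NFFSE medium held Noggin, FGF-7, FGF-10, the hedgehog agonist SAG and EGF, and NFFS medium held the same factors without EGF. EGF was given at 50 ng/ml. Cells of each of 3 repeats were divided between the media, which gave 3 NFFSE and 3 NFFS arrays. The mice were 7 to 8 weeks old, and their strain, sex and number per array are not given for the arrays. All cells of the bulge were taken, so each array read a mixture of stem cells and their neighbours after culture.

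Mitochondrial ribosomes translate the few proteins that mitochondrial DNA encodes, all of them parts of the oxidative phosphorylation machinery. Every protein of this ribosome is encoded in the nucleus, made in the cytosol and imported, while its RNAs are transcribed inside the organelle. Some of its proteins descend from bacterial ribosomal proteins, and others are found in mitochondria alone.

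Promoter sequence is shown for 4 members, since nuclear genes for mitochondrial proteins are known to share binding sites of NRF1, of the ETS factor GABPA and of YY1 close to their starts. Mrpl44 and Mrps31 had the largest falls in NFFSE cultures, and Mrpl33 and Mrpl20 had the largest rises. Each line gives the 100 bases before the RefSeq transcription start on GRCm38.p6, all on the plus strand and 5′ to 3′. Capitals mark whole matches to the letters searched, GCGCATGC or GCGCACGC for NRF1, CGGAAG for ETS, AAGATGGC for YY1 and CACGTG for the E-box bound by MYC and related factors. Both strands were searched, and the ETS and YY1 letters can overlap.
Mrpl44, chr1:79775918-79776017: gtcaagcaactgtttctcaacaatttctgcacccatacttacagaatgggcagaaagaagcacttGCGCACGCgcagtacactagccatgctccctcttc
Mrps31, chr8:22411240-22411339: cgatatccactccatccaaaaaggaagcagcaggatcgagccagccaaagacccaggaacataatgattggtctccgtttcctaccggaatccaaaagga
Mrpl33, chr5:31613851-31613950: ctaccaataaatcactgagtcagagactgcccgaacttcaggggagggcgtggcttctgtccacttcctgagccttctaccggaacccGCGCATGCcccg
Mrpl20, chr4:155802778-155802877: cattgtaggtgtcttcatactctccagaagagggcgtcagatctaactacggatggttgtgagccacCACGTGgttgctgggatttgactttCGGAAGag
The Mrpl44 stretch held an NRF1 match that began at -35. That of Mrpl33 held one at -12, and an ETS match at -2 runs across the start and is therefore left in lower case. Mrpl20 had an E-box at -33 and an ETS match at -8. The Mrps31 stretch held no match, and the ETS match of its full window lies at -200.

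Over windows of 300 bases, from 250 before to 50 after the start, 67 members had 73 windows, some of them alternative starts of one gene. The ETS letters were present in 39 of these (53.4%), against 16.9% of 32851 windows of all genes and 23.7% of 18109 windows of genes read from the array. YY1 letters were present in 12 (16.4%, against 2.75% and 3.38%), NRF1 letters in 11 (15.1%, against 5.39% and 8.19%) and the E-box in 7 (9.59%, against 7.15% and 8.72%). Among members that differed between the media, the ETS letters were in 5 of 8 windows of genes that rose and 3 of 9 windows of genes that fell. Windows of members that were not called held them in 31 of 56. The second spelling for NRF1 was added after the sequences had been seen, and with GCGCATGC alone 8 member windows matched (11.0%, against 2.71% and 4.04%). A letter match is a description of the sequence and not a measured binding site. No window was given for Mrpl4, Mrpl13, Mrpl15, Mrpl19, Mrpl38, Mrpl54, Mrps28, Mrps34 and Mrps35.

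The values are MAS5 signals, which are linear and in scaled units, and the authors' scaling set the trimmed mean of every array to 500. Median signal over all genes then lay between 141 and 152 with EGF and between 162 and 178 without it. Epithelial markers were bright on all 6 arrays, with Krt5 between 25999 and 37329 and Krt14 between 13179 and 30726. Of these 6 markers, 3 rose in NFFSE and 1 fell, with log2 differences of 1.98 for Cd34, 1.28 for Itga6 (CD49f), 0.82 for Krt14 and -1.98 for Krt15. The 6 fibroblast markers lay between 8.11 and 204, and of these Col1a2 fell (log2 difference -1.24, adjusted p = 0.0074). Melanocyte markers lay between 11.1 and 353, leukocyte markers between 6.45 and 125 and endothelial markers between 10.3 and 127, and none of these was called by limma, at an unadjusted p under 0.05 or by the methods' t-test. Gapdh control probes gave a 3′ minus 5′ log2 difference of -0.383 to -0.36 in NFFSE cultures and -0.635 to -0.602 in NFFS cultures. For the Actb control probes the ranges overlapped, at 0.258 to 0.295 and 0.265 to 0.374, and the part of either control in the results was not tested.

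One NFFS array stood apart for the mitochondrial ribosomal proteins. NFFS replicate 2 had the highest signal of its medium for 64 of the 76 genes (84.2%), whereas it was highest for 35.7% of all genes. It was the highest of all 6 arrays for 40 members. On NFFS replicate 1, by contrast, 51 members had their lowest signal of the medium. The median member lay 0.14 above its own NFFS mean on the log2 scale in replicate 2, -0.10 from it in replicate 1 and -0.041 in replicate 3. On the NFFSE arrays these medians ran from -0.015 to 0.031. Cytosolic ribosomal proteins (45 of 49) and subunits of oxidative phosphorylation (69 of 81) were also highest in NFFS replicate 2 among NFFS arrays. Its omission changes several of the counts that follow, as given beside them.

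**Figure D1:**
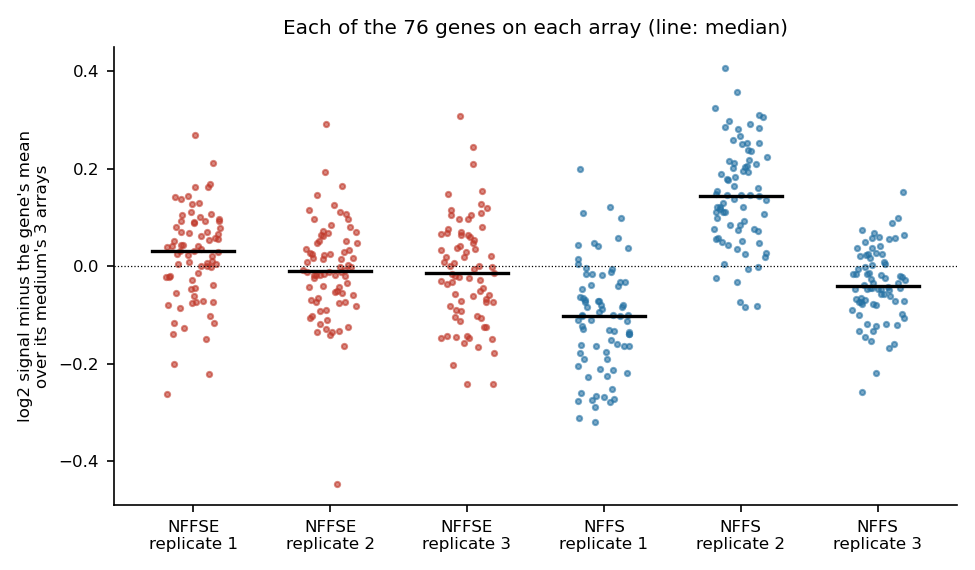
Log2 signal of each of the 76 genes on each array, minus that gene's mean over the 3 arrays of its medium; each point is a gene and each line the median. On NFFS replicate 2 the points lie mostly above 0 (median 0.14), and on NFFS replicate 1 mostly below it (median -0.10).

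Transcripts for the mitochondrial ribosome differed little between the media as a group. By limma at an adjusted p under 0.05, EGF cultures had 10 of the 76 higher (13.2%) and 6 lower (7.89%), which left 60 not called. Over all 18193 genes, 11.0% were called higher and 15.2% lower. Among the 11333 of these that were not dim, by the rule given below, the shares were 16.7% and 23.4%. The members' share higher thus lay between the 11.0% and the 16.7%, and their share lower was under both backgrounds. The median log2 difference, NFFSE minus NFFS, was 0.086 over the members and -0.011 over all genes. In mixed cultures such as these, fewer cells of a type and less RNA per cell cannot be told apart.

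The members lay within a narrow range, although neither set of genes compared with them here was matched to them in signal. Log2 differences ran from -0.85 to 0.87, and 73 of 76 (96.1%) were within 1.5-fold in either direction, compared with 58.9% of all genes and 63.8% of the 11333 genes above the dimmest 40% of signals in at least one medium. None of the members was dim by that rule. The SD of the log2 differences was 0.293 over the members and 1.0 over all genes. Replicate spread was small as well, with a median coefficient of variation of 7.19% in NFFSE and 10.0% in NFFS. The genes above the dimmest 40% had 10.9% and 13.6%. For 54 of the 60 members not called, the unadjusted 95% interval of the difference excluded a 1.5-fold change in both directions. The other 6 were Mrpl1, Mrpl38, Mrpl57, Mrps18b, Mrps27 and Mrps35, and the widest bounds among them were 1.64-fold higher and 1.54-fold lower. All signals of NFFSE arrays were above all NFFS signals for 18 of 76 members, and below them for 8 of 76. Over all 18193 genes this held for 3359 (18.5%) and 4011 (22.0%). Among the 11333 genes above the dimmest 40% it held for 2782 and 3569.

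**Figure D2:**
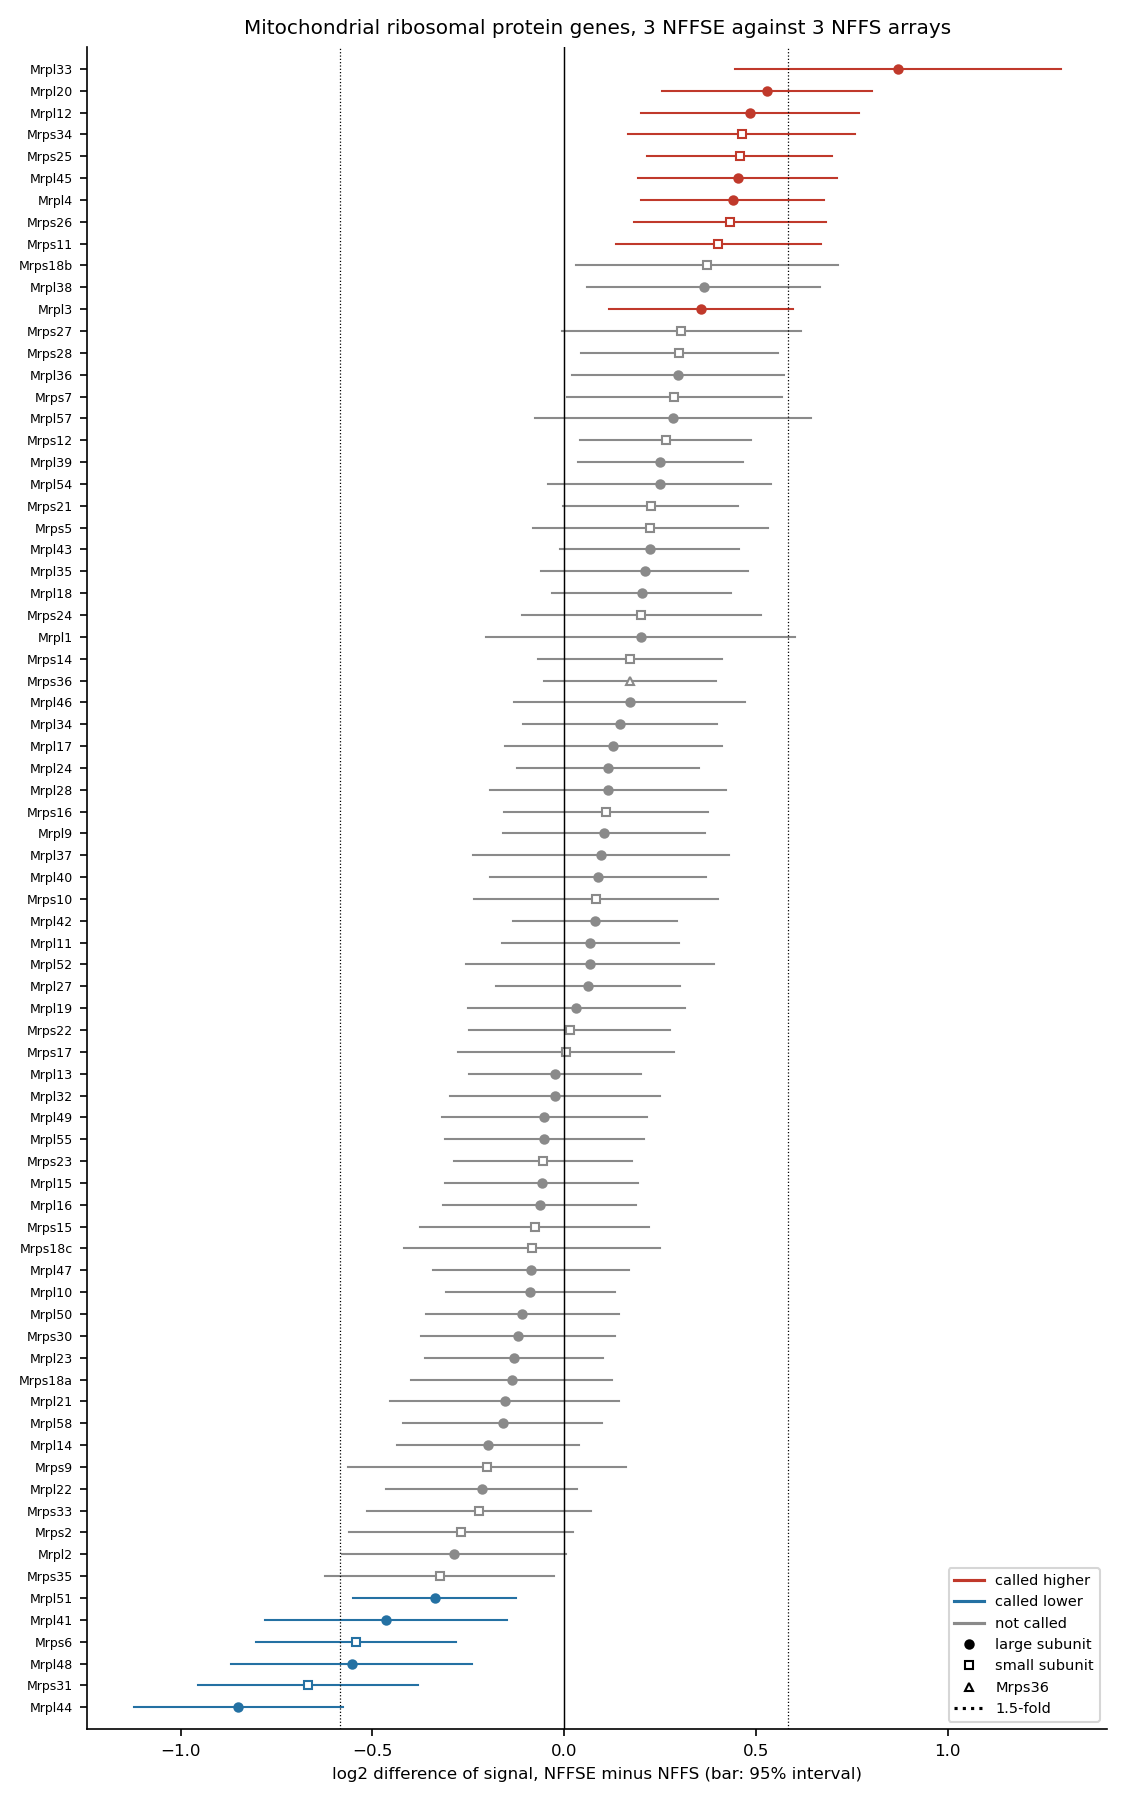
Log2 difference of signal, NFFSE minus NFFS, of each of the 76 genes with its 95% interval from limma, ordered by size; filled circles are large-subunit genes, open squares small-subunit genes and the triangle Mrps36. The 10 genes called higher (red) reach 0.87 for Mrpl33, the 6 called lower (blue) reach -0.85 for Mrpl44, and 73 of 76 points lie between the dotted lines at 1.5-fold.

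Mrpl44, a large-subunit protein with an RNase III fold that is required for assembly of the subunit, fell the furthest. With EGF its signals were 895, 790 and 723, and without EGF they were 1408, 1568 and 1355. Every NFFSE array was thus below every NFFS array. The group means were 803 ± 86.9 and 1444 ± 111 (SD, n = 3 each), a 1.80-fold fall (95% interval 1.49 to 2.18, log2 difference -0.85 ± 0.12 SE, limma adjusted p = 5.9e-04). All 4 Mrpl44 probe sets were called lower, with log2 differences from -0.948 to -0.759.

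Mrps31, a mitochondria-specific protein of the head of the small subunit, followed. The NFFSE signals were 526, 488 and 565, and the NFFS signals were 779, 924 and 809. These did not overlap, and the fall was 1.59-fold (1.30 to 1.94, log2 difference -0.67 ± 0.13 SE, limma adjusted p = 0.0034). Mrpl44 and Mrps31 kept their calls in each of the 15 alternative analyses, including each one that left out an array.

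The other 4 genes that fell were Mrps6, Mrpl48, Mrpl51 and Mrpl41. Mrps6, a protein of the small subunit with a bacterial counterpart, read 2755, 2502 and 2628 in NFFSE and 3275, 4206 and 4068 in NFFS, a 1.46-fold fall (adjusted p = 0.0064). Mrpl48, which belongs to the central protuberance at the top of the large subunit, read 1351, 1244 and 1611 against 1807, 2413 and 1960 (1.47-fold, adjusted p = 0.015). Neither gene overlapped between the media. Mrpl51 read 5970, 5554 and 5632 in NFFSE and 7019, 7655 and 7010 in NFFS, a 1.26-fold fall (adjusted p = 0.024). Mrpl41 was the least certain of these, with 2189, 1951 and 2305 against 2523, 3636 and 2814 (1.38-fold, adjusted p = 0.035). Its call was lost in 9 of 15 alternatives, among them the omission of NFFS replicate 2, NFFS replicate 3 or any one NFFSE array. The call of Mrps6 was lost in 3, and those of Mrpl48 and Mrpl51 in 5 each.

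Mrpl33, a small protein of the large subunit with a bacterial counterpart, had the largest rise and, among the called members, the largest standard error. It read 2563, 1707 and 2884 in NFFSE and 1069, 1365 and 1417 in NFFS. NFFSE replicate 2 was the lowest of its medium by a wide margin, yet remained above all NFFS arrays. The means were 2385 ± 608 and 1284 ± 187 (SD, n = 3 each), a 1.83-fold rise (95% interval 1.36 to 2.45, log2 difference 0.87 ± 0.19 SE, limma adjusted p = 0.007). Without NFFSE replicate 2 the log2 difference was 1.09, and with any other single array left out it was 0.715 to 0.946, called in each case. The call was lost with the mean of all probe sets (0.472, adjusted p = 0.18), without the intensity trend (adjusted p = 0.07) and by the methods' t-test (adjusted p = 0.11).

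Mrpl20, a bacterial-type protein that binds early in large-subunit assembly, read 2339, 2668 and 2673 in NFFSE against 1692, 2058 and 1591 in NFFS (1.44-fold, 1.19 to 1.74, adjusted p = 0.0092). Mrpl4, part of the wall of the tunnel through which the new chain leaves, read 2425, 2146 and 2041 against 1671, 1532 and 1664 (1.36-fold, adjusted p = 0.012). Neither gene overlapped between the media, and both kept their calls in 13 of 15 alternatives. Mrpl45 lies at the mouth of that tunnel and holds the ribosome at the inner membrane. Its signals were 1482, 1400 and 1196 against 1023, 988 and 958 (1.37-fold, adjusted p = 0.016). Mrpl12, the stalk protein that recruits translation factors, was nearly level over the NFFSE arrays at 3768, 3685 and 3620, and its NFFS signals of 2334, 3206 and 2449 were lower and more scattered (1.40-fold, adjusted p = 0.018). Mrpl3, which reaches towards the peptidyl transferase centre, read 2138, 1914 and 2238 against 1524, 1723 and 1659 (1.28-fold, adjusted p = 0.033). These calls were less stable, since of 15 alternatives 5 lost that of Mrpl45, 6 that of Mrpl12 and 7 that of Mrpl3.

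Of the small subunit, Mrps25, Mrps26, Mrps34 and Mrps11 rose. The first 3 are mitochondria-specific, and Mrps11 has a bacterial counterpart. Mrps25 read 2117, 2233 and 1867 in NFFSE and 1430, 1556 and 1531 in NFFS (1.37-fold, adjusted p = 0.01). Signals of Mrps26 were 1688, 1435 and 1635 against 1085, 1234 and 1203 (1.35-fold, adjusted p = 0.017). Mrps34, which stabilises the small-subunit RNA, read 4626, 4484 and 3897 against 3266, 3606 and 2621 (1.38-fold, adjusted p = 0.027). For Mrps11 the signals were 888, 793 and 893 against 600.0, 672 and 675 (1.32-fold, adjusted p = 0.032). Of 15 alternatives, 3 lost the call of Mrps25, 5 that of Mrps34, 6 that of Mrps26 and 7 that of Mrps11. No NFFSE array overlapped an NFFS array for any of the 10 genes that rose. They were chosen by p on these same arrays, as were those that fell, so non-overlap adds no separate support. Their calls held unequally when arrays were left out, since the number higher was 3 without NFFSE replicate 1, 5 without NFFSE replicate 2 or NFFS replicate 3, 6 without NFFS replicate 1 and 16 without NFFS replicate 2. The number lower was 3 without NFFSE replicate 2 and 4 to 6 otherwise. Of all genes, 26.4% were called in either direction without NFFS replicate 2. Without each other array this share was 19.4% to 22.3%, against 26.2% with all arrays.

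**Figure D3:**
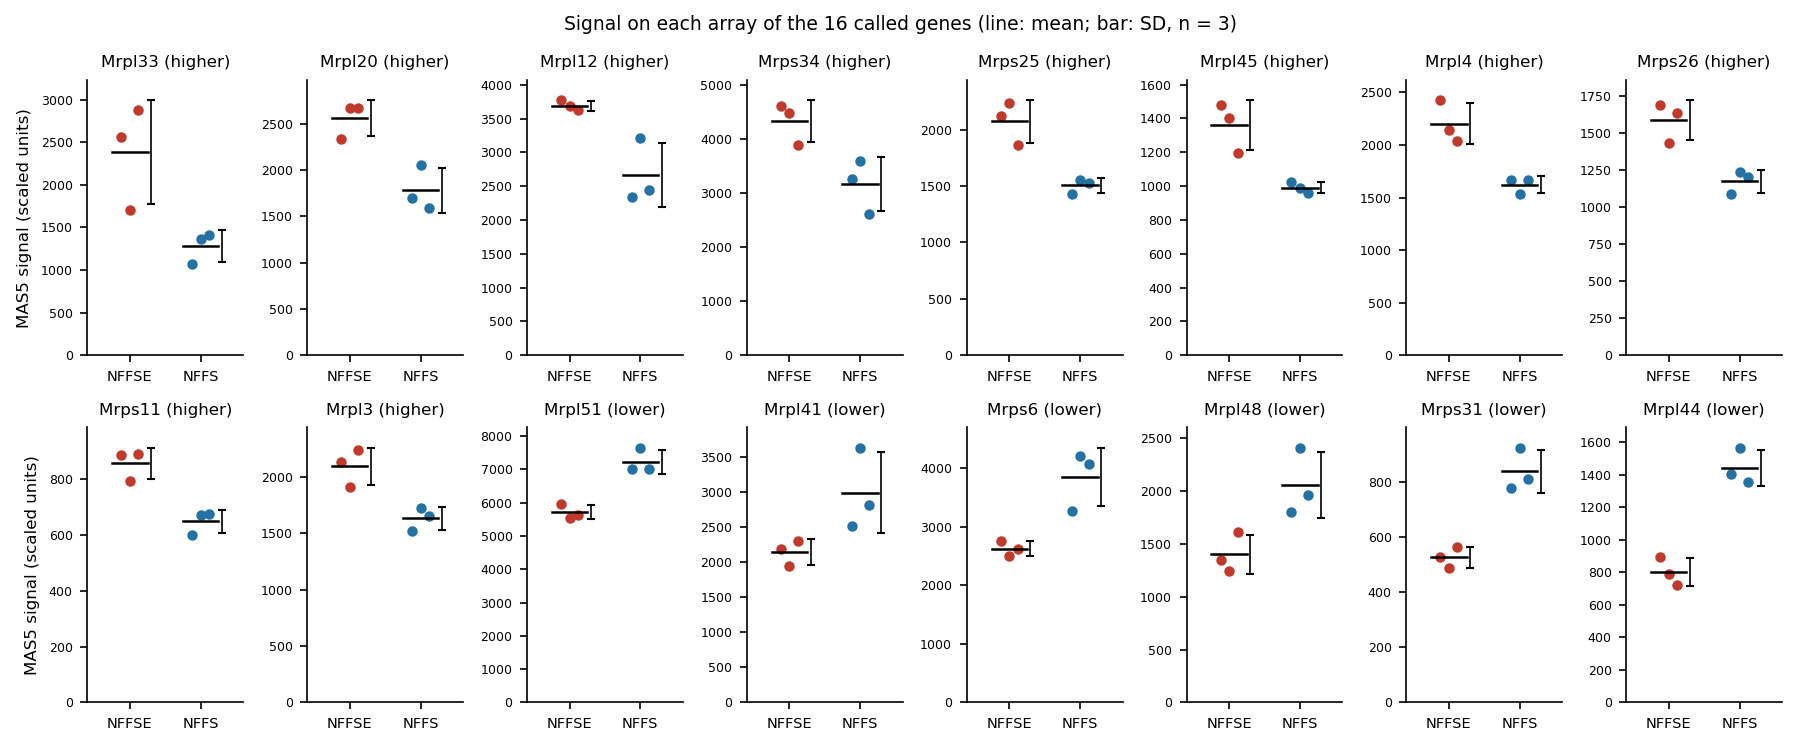
MAS5 signal on each array of the 16 called genes, from 0; points are arrays (NFFSE red, NFFS blue), lines are means and bars are SD with n = 3. Within each panel the media do not overlap, and the fold is largest for Mrpl33 among the genes that rose and for Mrpl44 among those that fell.

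Both subunits held genes of either direction. In the large subunit 6 of 49 rose and 4 fell (median log2 difference 0.069), and in the small subunit 4 of 26 rose and 2 fell (median 0.14). Genes with a bacterial counterpart had 6 of 45 higher and 1, Mrps6, lower. Mitochondria-specific subunits had 4 of 30 higher and 5 lower. Their share lower (16.7%) lay between those of all genes (15.2%) and of genes that were not dim (23.4%). For genes with a bacterial counterpart the share lower (2.22%) was under both. Neither the difference between the classes nor that from these shares was tested. By place in the ribosome, the central protuberance held 1 riser (Mrpl33) and 1 faller (Mrpl48) among 10 genes, and the rim of the tunnel exit likewise 1 (Mrpl45) and 1 (Mrpl44) among 8. In the head of the small subunit Mrps31 was the sole call among 8, and in the stalk Mrpl12 was the sole call among 4.

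The 3 genes of the Mrps18 family did not pass the test. Mrps18c, whose product fills the bacterial S18 position, had a log2 difference of -0.084 (adjusted p = 0.75), and Mrps18a, placed in the large subunit, had -0.14 (adjusted p = 0.46). Mrps18b read 1595, 1765 and 1504 in NFFSE and 1029, 1564 and 1209 in NFFS, a log2 difference of 0.37 (95% interval 0.032 to 0.72, adjusted p = 0.11). NFFS replicate 2 is the array that overlapped the NFFSE range for Mrps18b. Without it the difference was 0.54 (adjusted p = 0.012), and with the replicate number as a block the adjusted p was 0.039. Members at the ends of the signal range also mostly did not pass. Mrps14, Mrpl52 and Mrpl13 at the bright end had log2 differences of 0.17, 0.067 and -0.023. Mrps5, Mrpl1 and Mrps27 at the dim end had 0.23, 0.20 and 0.31.

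Further probe sets allowed 42 of the 76 genes to be read more than once. Of 46 such probe sets with a mean signal of 100 or more, 37 had the same sign as the probe set read. Called genes had 10 of these, all of the same sign, and 8 were called themselves. All 8 belonged to genes that fell. Those of genes that rose were not called, with 0.262 for Mrpl3 (limma adjusted p = 0.14) and 0.0447 for Mrps25 (limma adjusted p = 0.89). Disagreements in 4 genes are named after their values were seen. Mrpl1 had a second probe set at 235, 201 and 215 in NFFSE and 419, 367 and 379 in NFFS (log2 difference -0.84, called lower). The Mrpl57 probe set that was not read had -0.784 and was called lower. A second probe set of Mrpl28 was higher in NFFSE (2554, 2623 and 2752 against 1714, 1368 and 1969, log2 difference 0.666), whereas the other 2 gave 0.115 and 0.124. For Mrps5, one further probe set had 0.50 and was called. Averaging all probe sets of a gene, dim ones included, left 5 genes higher and 5 lower and put the median log2 difference at -0.058. The 34 further probe sets under 100 had a median of -0.266.

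The number of calls depended on how the arrays were brought to a common scale. Centring each array on its median in place of the trimmed mean moved all log2 differences up by 0.19. The members then had 23 higher and 2 lower, against 16.6% and 10.9% of all genes. Of the 11333 genes that were not dim, 2828 were higher and 1885 lower after centring. Higher calls made up 41.9% of all calls as deposited and 60.4% after centring, and for the members 62.5% and 92.0%. No member changed from one called direction to the other. The 10 genes higher as deposited were higher under both scalings, and 13 were higher after centring alone. Mrpl44 and Mrps31 remained lower after centring, while Mrps6, Mrpl48, Mrpl51 and Mrpl41 were no longer called. Set against the median of all genes, the members' median stood 0.098 higher in both cases. Quantile normalization gave 12 higher and 6 lower.

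**Figure D4:**
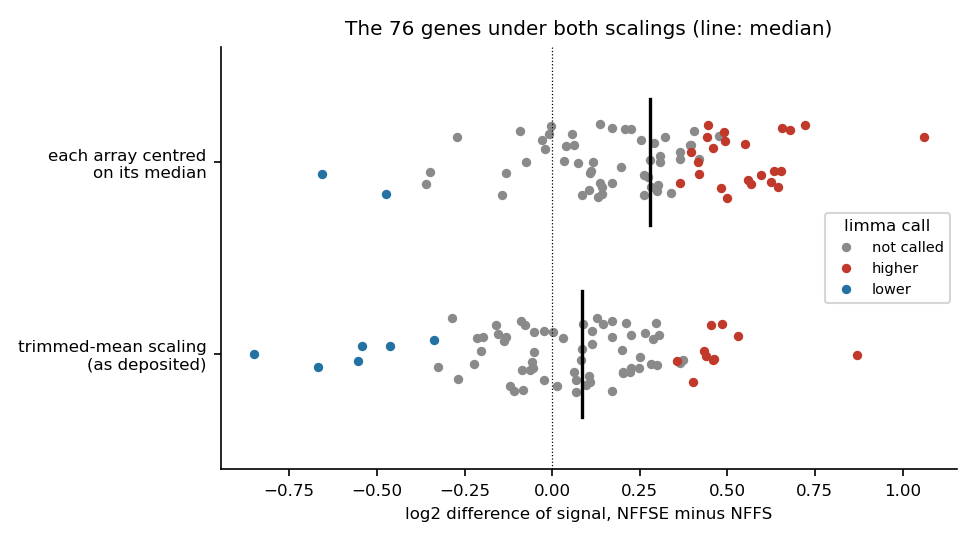
Log2 difference of signal, NFFSE minus NFFS, of the 76 genes as deposited (below) and with each array centred on its median (above); points are genes coloured by limma call and lines are medians. The shift of 0.19 carries the members' median from 0.086 to 0.28 and the calls from 10 higher and 6 lower to 23 and 2.

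Genes that work with the mitochondrial ribosome were read from lists chosen for their function. Subunits that do not carry an Mrp symbol (Dap3, Ptcd3, Gadd45gip1 and Chchd1) had 0 of 4 called by limma, with 1 higher at an unadjusted p under 0.05 and 0 by the methods' t-test. Their log2 differences were -0.0085 to 0.27. Of 12 mitochondrial translation factors, 4 rose (33.3%) and 1 fell (8.33%). Over all genes 11.0% rose and 15.2% fell, and over genes that were not dim 16.7% and 23.4%. Gfm2, which acts in ribosome recycling, rose most (542, 466 and 446 against 347, 253 and 320, log2 difference 0.67, adjusted p = 0.015). The elongation factors Gfm1 (0.47, adjusted p = 0.014) and Tufm (0.46, adjusted p = 0.016) rose too, as did Tsfm (0.45, adjusted p = 0.042), which recharges Tufm and was named after its value was seen. The recycling factor Mrrf fell (-0.45, adjusted p = 0.014). Without NFFSE replicate 1 none of the factors was higher, without NFFSE replicate 2 only 2 were and Mrrf was not called, and without any other single array 3 or 4 were higher and 1 lower. By the methods' t-test 0 were higher and 1 was lower, as with the mean of all probe sets, and without the intensity trend 0 were called.

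Of 25 assembly factors of the mitochondrial ribosome, 0 were called higher and 5 lower by limma (2 and 8 at an unadjusted p under 0.05, and 1 and 4 by the methods' t-test), with a median log2 difference of -0.19. The share that fell lies between the shares of all genes (15.2%) and of genes above the dimmest 40% (23.4%). Mterf4, which brings an RNA methyltransferase to the ribosomal RNA, read 509, 522 and 421 in NFFSE and 891, 772 and 831 in NFFS (log2 difference -0.79, adjusted p = 0.0018). Mrm2, a methyltransferase of the large ribosomal RNA, had -0.97 (adjusted p = 0.0091), the pseudouridine synthase family member Trub2 -0.77 (adjusted p = 0.0069) and the GTPase Mtg2 -0.74 (adjusted p = 0.036). The fifth, Rcc1l, was chosen after its value was seen and had -0.48 (adjusted p = 0.049). This list had 3 higher and 3 lower after median centring and 2 and 3 after quantile normalization, 3 lower without NFFSE replicate 1 or 2 and without the intensity trend, and 4 without NFFS replicate 2.

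The machinery that transcribes and copies mitochondrial DNA, and thus makes the RNAs of the same ribosome, had 0 of 11 higher and 5 lower (45.5%). At an unadjusted p under 0.05 the counts were 0 and 6. At the adjusted threshold 11.0% of all genes were higher and 15.2% lower, and 16.7% and 23.4% of genes that were not dim. Tfam, the packaging and initiation factor, read 1280, 1184 and 1130 in NFFSE and 1854, 2127 and 2007 in NFFS (log2 difference -0.74, adjusted p = 6.1e-04). Tefm, the elongation factor, had -0.87 (adjusted p = 0.006), the initiation factor Tfb2m -0.39 (adjusted p = 0.011) and Mterf1a -0.74 (adjusted p = 0.017). Ssbp1, which coats single-stranded mitochondrial DNA, was named after its value was seen and had -0.40 (adjusted p = 0.04). The methods' t-test called 0 higher and 2 lower, median centring left 2 lower and the omission of NFFSE replicate 2 or of the intensity trend left 3. Without NFFS replicate 2 there were 4. Only 1 of the 13 proteins encoded by mitochondrial DNA had a probe set of its own, mt-Nd5, with 16228, 14331 and 16048 against 18760, 27627 and 18850 (log2 difference -0.46, adjusted p = 0.053). NFFS replicate 2 was again the highest array. With the replicate number as a block, after quantile normalization or with dim genes left out, mt-Nd5 was called lower.

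Among 9 transcriptional regulators of mitochondrial genes, 3 rose (33.3%) and 0 fell, with 5 and 0 at an unadjusted p under 0.05. The adjusted threshold was passed upwards by 11.0% of all genes and downwards by 15.2%. For genes that were not dim the shares were 16.7% and 23.4%. Esrra, a nuclear receptor for oxidative genes, read 888, 672 and 1056 in NFFSE and 382, 448 and 402 in NFFS (log2 difference 1.07, adjusted p = 0.0012). Its coactivator Ppargc1b read 181, 134 and 163 against 77.4, 41.2 and 22.0 (1.94, adjusted p = 0.0082). Myc, which drives ribosome production and growth, rose as well (0.70, adjusted p = 0.013). Pprc1 had 0.47 (adjusted p = 0.054). Among factors whose letters were searched in the promoters, Myc was thus called, and Nrf1, Gabpa and Yy1 were not. Log2 differences were -0.0135 for Nrf1 (adjusted p = 0.96), -0.0921 for Gabpa (adjusted p = 0.64) and 0.128 for Yy1 (adjusted p = 0.37). These genes were named after their values were seen. The list had 2 higher without NFFSE replicate 2, NFFSE replicate 3 or NFFS replicate 1, and 4 without NFFS replicate 2. It had 5 after median centring, 2 with the mean of all probe sets or without the intensity trend, and 1 by the methods' t-test. Of 16 mitochondrial tRNA synthetases, Iars2 rose (0.41, adjusted p = 0.02) and Pars2 fell (-0.81, adjusted p = 0.017), and after median centring 3 were higher and 0 lower.

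Every subunit must be imported, and of 21 genes of the import machinery 5 rose (23.8%) and 0 fell. At an unadjusted p under 0.05 the counts were 10 and 1. By limma at the adjusted threshold 11.0% of all genes rose and 15.2% fell. The shares of genes that were not dim were 16.7% and 23.4%. Tomm40, the outer membrane channel, read 3066, 3105 and 3003 in NFFSE and 1813, 1624 and 1833 in NFFS (log2 difference 0.80, adjusted p = 2.0e-04). The matrix chaperone Hspa9 read 8107, 8208 and 8164 against 4470, 4733 and 5153 (0.77, adjusted p = 2.4e-04). Timm8a1 (0.57) and Timm13 (0.51), carriers between the membranes, also rose. The list had 10 higher without NFFS replicate 2, 3 without NFFSE replicate 2 and 4 or 5 without any other array. It had 8 higher with the replicate number as a block, 10 after median centring, 3 by the methods' t-test and 2 without the intensity trend.

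Most cytosolic ribosomal proteins and subunits of oxidative phosphorylation also differed by less than 1.5-fold, although single genes differed by more than any member. Of 49 cytosolic genes read, 2 were higher and 1 lower (the same numbers at an unadjusted p under 0.05), with a median log2 difference of 0.17, a range of -0.509 to 2.37 and 95.9% within 1.5-fold. The calls were Rpl39 (61.3 to 350.4 over the arrays), Rpl3l (2.75 to 32.4) and Rpl7l1. Rpl3l, which sets the upper end of the range at 2.37, was dim, with every array under the limit of 74. Rpl39 had a log2 difference of 1.27 and Rpl7l1 had -0.509. With dim genes left out, 1 cytosolic gene was higher and 1 lower. Of 81 genes of oxidative phosphorylation, 8 were higher and 1 lower, with a median of 0.11, a range of -1.22 to 2.34 and 92.6% within 1.5-fold. Scaling turned the balance of these calls, with 15 higher and 0 lower after median centring and 4 higher and 7 lower after quantile normalization. That count was 17 higher and 0 lower without NFFS replicate 2, and 3 or 4 higher without NFFS replicate 3 or any one NFFSE array. With dim genes left out 14 were higher, and without the intensity trend 3. For the cytosolic genes 0 were higher without NFFSE replicate 2 or NFFS replicate 3 and 1 without NFFSE replicate 1, NFFSE replicate 3 or NFFS replicate 1. Over all genes 11.0% were higher and 15.2% lower by limma, and over genes that were not dim 16.7% and 23.4%. The differences between these lists and the members were not tested.

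**Figure D5:**
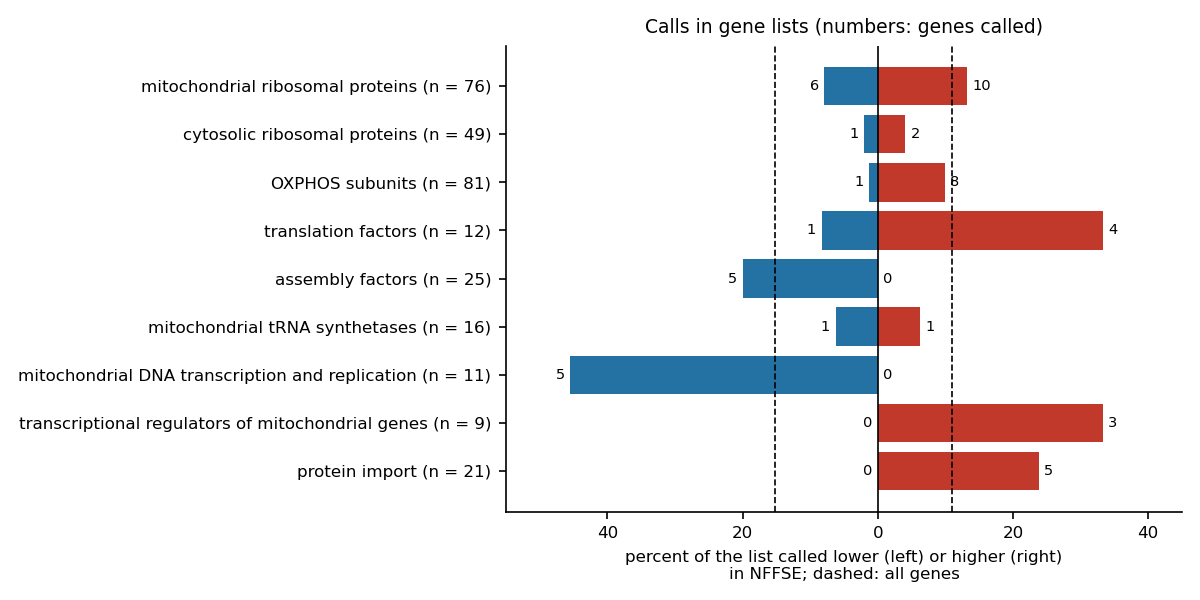
Percent of each gene list called lower (blue, left) or higher (red, right) in NFFSE by limma; numbers beside the bars are genes called and dashed lines mark all 18193 genes (15.2% lower, 11.0% higher). The 5 of 25 assembly factors and 5 of 11 genes of mitochondrial DNA transcription and replication lie on the left, and the 4 of 12 translation factors, 3 of 9 regulators and 5 of 21 import genes lie mainly on the right.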

How the data were processed

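Total RNA (RNeasy kit; 100 ng for biotin labelling) was hybridised to 1 Mouse Genome 430 2.0 array a culture. Per the labels, the deposited values are MAS5 intensities on a linear scale. The authors scaled each array, and the trimmed mean without the top and bottom 2% was found at 500 on all 6. The MAS5 version is not given in the sources used here. Of 45101 probe sets, 34945 carry 1 gene symbol in the platform annotation, 932 several and 9160 none, beside 64 controls. The array's depth of reading is set by signal alone, and 3 arrays a medium limit the precision.

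Log2 intensities of 18193 genes, 1 probe set each, entered linear models in R 4.3.3 with limma 3.58.1 (eBayes with intensity trend, NFFSE minus NFFS, Benjamini-Hochberg over all genes, threshold 0.05). The code was tested on simulated data. Intervals are 95% and unadjusted. The methods' t-test is the two-tailed test the study names. Titles call the arrays biological replicates. Same-numbered arrays come from one repeat divided between the media, per the series design: their deviations from the group means correlated at 0.0656, 0.0424 and 0.0367, and other pairs at -0.0411 to -0.00175.

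Members and lists were chosen with earlier results of these data known. The text names members past the threshold, up to 12 in each direction, the 4 at either end of the signal range, the Mrps18 paralogs, members with opposite probe set calls (0 were found) and up to 4 genes of each list by p. Roles and places in the ribosome are textbook assignments. Also read were lists for nucleolar ribosome biogenesis and proliferation. Mrpl30 and Mrpl53 have only probe sets shared with another gene and were left out. Promoters are from RefSeq (GRCm38.p6). Other scalings, probe set rules, a pseudocount of 16, a filter on dim genes, no intensity trend, the block and leaving out each array were tried as alternatives.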

Additional observations from a re-analysis of the deposited data

How the results depend on the processing

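Of the members, 10 were called higher and 6 lower, with a median log2 difference of 0.086. Median centring gave 23, 2 and 0.28. The mean of all probe sets gave 5 higher and a median of -0.058, and turned Mrps11 from 0.40 to -0.502 (adjusted p = 0.41), where its second, dim probe set enters. Limma without the intensity trend gave 0 higher and 2 lower (10 and 6 at an unadjusted p under 0.05), with 17.9% of all genes called against 26.2% with the trend. The methods' t-test gave 3 and 3, with 16.3% of all genes called. Leaving out single arrays gave 3 to 16 higher, 3 to 6 lower and medians of 0.024 to 0.164. Between 19.4% and 26.4% of all genes were then called. With the replicate number as a block, 11 were higher and 6 lower; among the named members it added the call of Mrps18b and removed none. Choosing probe sets by linear mean, added after seeing the data, gave 11 higher, with Mrpl28 among them. Adding 16 to signals, leaving out dim genes and quantile normalization kept all 3 values within 1.5 times. Of the 16 calls, 2 held in all 15 alternatives and 14 were lost in at least 1; the cause was not tested.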

Other observations

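Cytosolic ribosome production was read beside the mitochondrial ribosome. Of 20 genes for nucleolar ribosome biogenesis, 11 were higher (55.0%) and 0 lower in NFFSE by limma. At an unadjusted p under 0.05 there were 14 and 0, and by the methods' t-test 5 and 0. By limma 11.0% of all genes were higher and 15.2% lower, and 16.7% and 23.4% of genes that were not dim. The t-test called 16.3% of all genes. Rrp9, part of the particle that processes ribosomal RNA, read 486, 565 and 405 in NFFSE and 163, 255 and 130.3 in NFFS (log2 difference 1.46, adjusted p = 0.0018). Nolc1, a nucleolar chaperone, read 2111, 2139 and 1978 against 1052, 1049 and 1317 (0.87, adjusted p = 4.2e-04). Bysl, which matures the small subunit, had 0.78 (adjusted p = 0.0013), and the methyltransferase Nop2 had 0.74 (adjusted p = 0.0016). Without NFFSE replicate 2 the count was 6, and without any other single array it was 9 to 12. It was 6 with the mean of all probe sets and 4 without the intensity trend, where 21.8% and 17.9% of all genes were called. Of 9 proliferation genes, 0 were higher and 1 lower (0 and 1 at an unadjusted p under 0.05, 0 and 0 by the methods' t-test), and the one was Ccna2, with 3223, 2638 and 2153 against 4184, 3309 and 3926 (-0.52, adjusted p = 0.029). Ccna2's list had 2 lower without NFFS replicate 2, 1 without NFFSE replicate 1 and 0 without each of the other arrays. After median centring 1 of its genes was higher and 0 lower.

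Probe sets shared with another gene also carried member symbols. The probe set of Mrps34 and Nme3 had a log2 difference of -0.166, opposite in sign to the Mrps34 probe set read (0.46). That of Mrpl53 and Ccdc142 had 0.26, with NFFS replicate 2 at 3392 and the other NFFS arrays at 2291 and 2326. The brighter of the 2 probe sets of Mrpl30 and Gm6238 had 0.131.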
